A study of Mus musculus with 9 samples.

Results

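The zinc finger gene cluster of mouse chromosome 4 is described here by the H3R2me2a peaks that start between 143500001 and 150000000 on chromosome 4 in build mm10, a segment of 6.5 Mb. The members are all 6849 such peaks, of 1548240 peaks in the 6 lists together. They are 96 and 167 peaks in Igf2bp2KO, 2593 and 1762 in Prmt6KO, and 1179 and 1052 in WT (replicates 1 and 2 of each genotype). The segment was chosen because its peak density, relative to the rest of the genome, was lower in Prmt6KO than in WT. That difference is therefore given as a description without a test. The flanks are the 10 Mb before the segment and the rest of chromosome 4 after it.

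H3R2me2a is histone H3 with its second residue, an arginine, asymmetrically dimethylated, a mark written by the enzyme PRMT6. It was mapped by chromatin immunoprecipitation and sequencing in Igf2bp2KO, Prmt6KO and WT mouse bone marrow cells, with 2 H3R2me2a libraries and 1 input library for each genotype. The knockouts are written Igf2bp2-/- and Prmt6-/- in the series' design text, which calls the cells leukemia cells. All groups were grown with mouse IL3, IL6 and SCF. The labels give no age or strain. They do not tell if replicates 1 and 2 were grown or taken separately, so the spread between libraries may be technical. The inputs were not analysed here, and peak lists of a histone mark do not check the labelled cell type.

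Clusters like this one hold genes for zinc finger proteins that bind DNA with arrays of C2H2 fingers. Many also carry a KRAB domain, which recruits the corepressor TRIM28 and a histone H3 lysine methyltransferase to silence transposable elements. Such genes multiply by tandem duplication, and neighbouring copies stay alike in sequence. In mouse, the distal chromosome 4 cluster is known for repressing endogenous retroviruses. Fv1, which lies just past the zinc finger genes, is itself derived from a retroviral gag gene and restricts infection by murine leukemia viruses. The other end of the segment holds PRAME family genes, which encode leucine-rich repeat proteins expressed mostly in germ cells.

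The likeness between copies can be read from their promoters. RefSeq (GRCm38.p6) gives windows from 250 bases before to 50 bases after the start for 13 of the 17 zinc finger genes here. In 11 of these 13 genes (84.6%) the window shared a run of 50 identical bases with the window of another gene, as did 11 of 20 PRAME family genes (55%), 9 of 27 predicted genes (33.3%) and 0 of the 47 remaining genes of the segment, against 2370 of 27025 genes genome-wide (8.77%). The windows of Zfp600, Rex2 and Zfp979 are shown because these genes are among the named members and 2 of the windows are nearly the same sequence. Capitals mark the longest run that the set shares, 93 bases. They lie at chr4:146156577-146156876 (plus strand), chr4:147021600-147021899 (plus strand) and chr4:147642459-147642758 (minus strand).
Zfp600: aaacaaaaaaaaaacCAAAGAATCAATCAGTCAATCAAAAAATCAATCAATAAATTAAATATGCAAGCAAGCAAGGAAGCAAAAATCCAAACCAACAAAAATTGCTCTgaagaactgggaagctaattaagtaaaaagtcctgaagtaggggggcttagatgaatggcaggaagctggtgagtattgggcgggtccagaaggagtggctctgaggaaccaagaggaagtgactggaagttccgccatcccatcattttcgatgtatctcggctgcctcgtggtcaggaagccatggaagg
Rex2: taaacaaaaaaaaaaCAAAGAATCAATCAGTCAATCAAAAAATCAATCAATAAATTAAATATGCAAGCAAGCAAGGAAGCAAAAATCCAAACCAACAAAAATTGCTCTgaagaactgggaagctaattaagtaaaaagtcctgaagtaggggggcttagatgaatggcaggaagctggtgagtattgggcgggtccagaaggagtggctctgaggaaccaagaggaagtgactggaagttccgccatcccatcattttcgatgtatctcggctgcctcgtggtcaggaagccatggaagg
Zfp979: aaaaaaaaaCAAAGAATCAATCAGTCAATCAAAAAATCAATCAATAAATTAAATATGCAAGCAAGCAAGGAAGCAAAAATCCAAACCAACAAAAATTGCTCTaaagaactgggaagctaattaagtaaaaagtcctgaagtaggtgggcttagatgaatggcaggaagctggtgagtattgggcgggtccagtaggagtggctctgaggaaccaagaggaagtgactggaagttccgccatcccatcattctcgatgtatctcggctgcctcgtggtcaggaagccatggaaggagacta
The Zfp600 and Rex2 windows differed by 2 edits (99.3% identity), although other genes of the cluster lie between them. The Zfp979 window had 94.8% identity with each of them. A peak overlapped the Zfp979 window in both Prmt6KO and both WT libraries. No list held a peak over the Zfp600 window shown, and 1 list, Prmt6KO replicate 1, held one over the Rex2 window.

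A second set was Zfp988 and Zfp534, shown because a peak overlapped the Zfp988 window in both Prmt6KO libraries and in WT replicate 1, while over the Zfp534 window WT replicate 1 alone had one. The windows lie at chr4:147305354-147305653 (plus strand) and chr4:147702582-147702881 (minus strand), and capitals mark their longest shared run, 51 bases.
Zfp988: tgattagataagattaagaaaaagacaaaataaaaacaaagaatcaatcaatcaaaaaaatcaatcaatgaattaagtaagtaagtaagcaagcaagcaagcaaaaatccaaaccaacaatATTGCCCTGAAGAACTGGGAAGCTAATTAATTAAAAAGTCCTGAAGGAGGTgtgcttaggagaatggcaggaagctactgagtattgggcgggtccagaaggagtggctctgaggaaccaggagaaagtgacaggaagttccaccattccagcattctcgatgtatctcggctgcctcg
Zfp534: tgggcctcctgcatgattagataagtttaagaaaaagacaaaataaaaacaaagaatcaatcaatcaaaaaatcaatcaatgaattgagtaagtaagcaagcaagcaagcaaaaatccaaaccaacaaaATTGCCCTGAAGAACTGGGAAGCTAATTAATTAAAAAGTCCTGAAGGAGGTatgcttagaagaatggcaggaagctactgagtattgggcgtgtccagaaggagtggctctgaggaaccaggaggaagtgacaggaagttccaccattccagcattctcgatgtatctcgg
These windows had 89.8% identity. The sources used here do not state how the authors treated reads that match several copies, so peaks in near-identical copies cannot be assigned to 1 copy with certainty. The part of sequence sharing in the peak densities below was not tested.

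The lists differed in length and depth. On chromosomes 1 to 19 they held 912 and 1124 peaks in Igf2bp2KO, 761463 and 396471 in Prmt6KO, and 160428 and 123625 in WT. The weakest listed peaks had summits of 8 and 7 fragments in Igf2bp2KO, 2 and 3 in Prmt6KO, and 4 in both WT lists, over a background of 0.736 to 1.46 fragments. Total reads per library are not given in the sources used here. Fold enrichment used the same background for every peak of a list, so no local or input background is visible in it. The WT libraries were unlike each other on the sex chromosomes. The relative density was 0.182 and 1.20 on X and 0.376 and 0.00876 on Y, with replicate 1 unlike every other library. Densities below are relative, meaning the peaks per Mb of a region divided by the peaks per Mb of chromosomes 1 to 19 in the same library, so 1 is the library's own mean.

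WT density was high in the segment, and Prmt6KO density was not low. The relative density was 39.8 and 56.2 in Igf2bp2KO, 1.29 and 1.68 in Prmt6KO, and 2.78 and 3.22 in WT. All 6 libraries stood above their own mean, WT further above it than Prmt6KO. On the log2 scale the means were 5.57 ± 0.35 in Igf2bp2KO, 0.56 ± 0.27 in Prmt6KO and 1.58 ± 0.15 in WT (SD, n = 2 each). The difference between Prmt6KO and WT was -1.02, and the 2 Prmt6KO libraries lay below the 2 WT libraries, an order that the choice of segment fixed. Without WT replicate 1 it was -1.13.

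Windows of the same length elsewhere give the segment's rank. That rank is a description and no separate support, since the segment was chosen on its WT and Prmt6KO densities. The windows started every 500 kb, so they overlapped one another. Of 4658 such windows of chromosomes 1 to 19 placed apart from the segment, 0 were denser than the segment in either WT library. In Prmt6KO, 19 were denser in replicate 1 and 0 in replicate 2. In Igf2bp2KO, 27 and 25 were denser. The median window stood at 1.03 and 1.05 in Prmt6KO and at 1.03 and 1.01 in WT.

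The number of peaks itself was higher in Prmt6KO. The segment held 399 and 271 peaks per Mb in Prmt6KO and 181 and 162 in WT, so that the ratio of the Prmt6KO to the WT mean was 1.95. The difference in relative density moved with list length. When the WT and Prmt6KO lists were cut to their 123625 strongest peaks each, with ties in random order, the relative density was 2.41 and 2.83 in Prmt6KO and 3.17 and 3.22 in WT. The log2 difference was then -0.29. Among peaks with a fold enrichment of 4 or more it was 7.42 and 17.9 in Prmt6KO and 23.5 and 36.9 in WT, a log2 difference of -1.35. That threshold asked for the fewest fragments in Prmt6KO replicate 1, whose background was the lowest. At a q of 0.05 or below, the segment was again dense in every Prmt6KO and WT library, at 15.6 and 17.9 in Prmt6KO and 23.5 and 36.9 in WT.

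Most of the excess lay in 1 stretch, from the start of Zfp990 to the end of Zfp933 (145510759 to 147849126, 2.34 Mb), which holds the 17 zinc finger genes. Here the relative density was 111 and 155 in Igf2bp2KO, 1.83 and 3.23 in Prmt6KO, and 6.50 and 7.85 in WT. The stretch held 96 and 166 of the Igf2bp2KO peaks, 1323 and 1218 of the Prmt6KO peaks, and 991 and 922 of the WT peaks. Per Mb this was 566 and 521 peaks in Prmt6KO against 424 and 394 in WT. Peaks covered 25.5% and 27.8% of its bases in Prmt6KO and 21.8% and 20.5% in WT. In the rest of chromosomes 1 to 19 they covered 8.68% and 4.44% in Prmt6KO and 1.74% and 1.35% in WT. The ratio of mean coverage, Prmt6KO over WT, was thus 1.26 in the stretch and 4.25 elsewhere, while the difference was 5.44 and 5.01 percentage points.

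On average, the other parts of the segment stood near or below the libraries' means. Over the PRAME family genes (143500001 to 144408467) the relative density was 1.17 in both Prmt6KO libraries, and 1.03 and 0.942 in WT, with 0 peaks in Igf2bp2KO. From the Aadacl genes to Tnfrsf8, which encodes the receptor CD30 (144408468 to 145510758), it was 1.11 and 1.17 in Prmt6KO and 1.15 and 1.10 in WT, and the Igf2bp2KO lists held 0 and 1 peaks. This stretch was not even. Its window from 145400001 to 145500000, next to the zinc finger genes and with the predicted gene Gm42346, stood at 1.29 and 2.61 in Prmt6KO and 2.91 and 5.57 in WT, so the excess began before Zfp990. From Fv1 to the end it was 0.844 and 0.476 in Prmt6KO and 0.314 and 0.241 in WT, with 0 peaks in Igf2bp2KO. In that last stretch the order of the groups was the opposite of that over the zinc finger genes.

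The flanks were sparse. The 10 Mb upstream stood at 0.901 and 0.452 in Prmt6KO and 0.400 and 0.320 in WT, and the downstream flank at 0.856 and 0.459 in Prmt6KO and 0.362 and 0.294 in WT. Neither Igf2bp2KO list held a flank peak. Against its flanks the zinc finger stretch was 2.07 and 7.11 times as dense in Prmt6KO and 16.9 and 25.3 times as dense in WT. In Igf2bp2KO the stretch was 224-fold and 387-fold denser than the flanks when 3 flank peaks were counted in place of the 0 observed in each library. The 3 is a convention for a count of 0, so these ratios are not strict minima. Just outside the segment's bounds, the nearest 500 kb stood at 1.09 and 0.559 upstream and 1.23 and 0.857 downstream in Prmt6KO, against 0.583 and 0.279 upstream and 0.614 and 0.557 downstream in WT. Just inside, the first 500 kb stood at 1.22 and 1.07 in Prmt6KO and 1.17 and 1.07 in WT, and the last at 0.853 and 0.459 in Prmt6KO and 0.337 and 0.318 in WT. The bounds of the segment were therefore wider than the dense stretch.

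**Figure D1:**
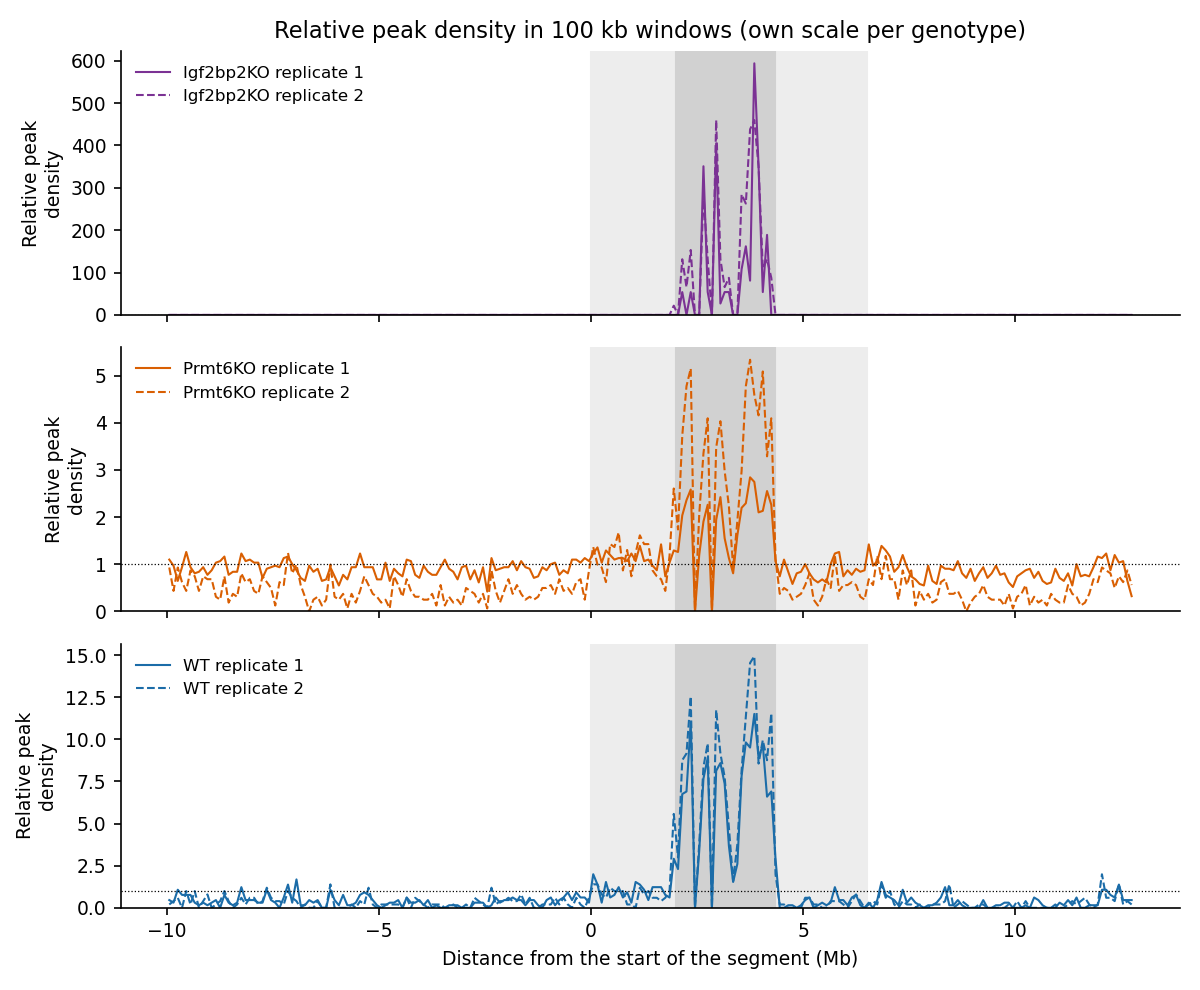
Relative peak density (vertical axis, 1 = the library's own mean, dotted) in windows of 100 kb against distance from the start of the segment in Mb, with a line per library and an own scale per genotype. Light grey is the segment and dark grey the zinc finger stretch, where all 6 libraries rise above their flanks and WT reaches 11.5 and 14.9.

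**Figure D2:**
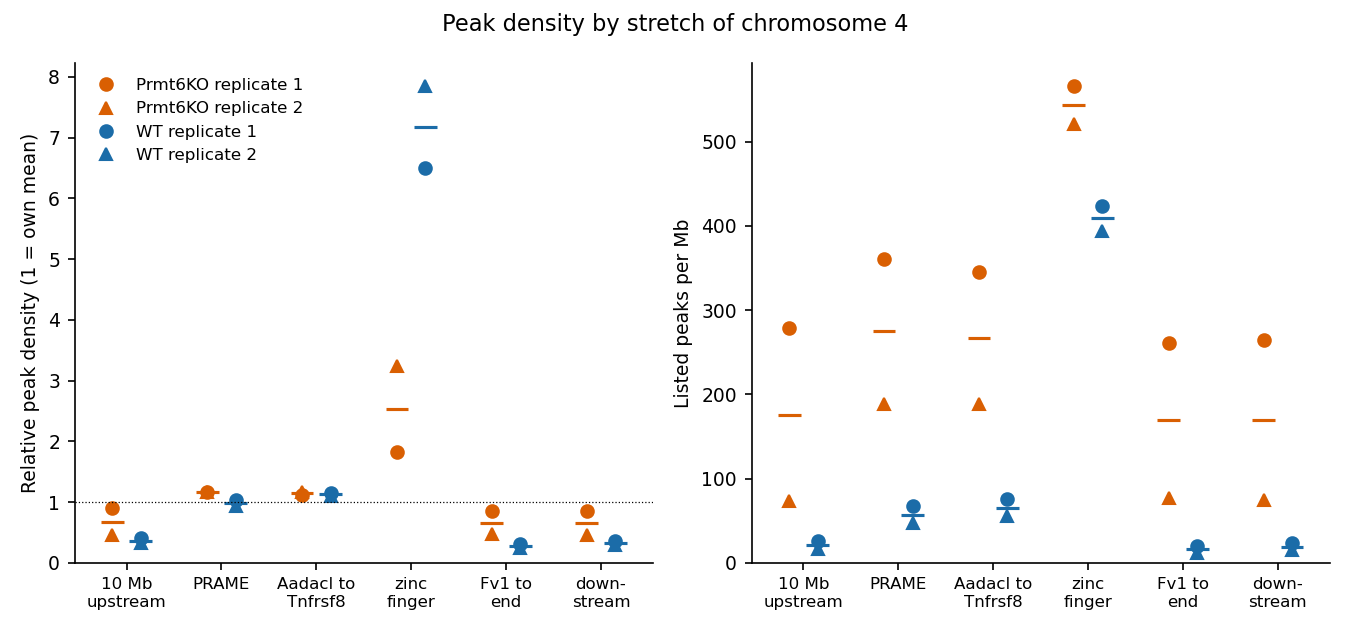
Relative peak density (left) and listed peaks per Mb (right) in the flanks and the 4 stretches of the segment, for Prmt6KO (orange) and WT (blue). Points are libraries and bars are means of 2. Over the zinc finger genes WT is higher in relative density (6.50 and 7.85 against 1.83 and 3.23), while Prmt6KO is higher in peaks per Mb (566 and 521 against 424 and 394).

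Igf2bp2KO was not in the contrast that chose the segment, but the WT values that it is set against were. Its lists were short, and 10.5% and 14.9% of their peaks on chromosomes 1 to 19 lay in the segment (exact 95% intervals 8.61% to 12.7% and 12.8% to 17.1%, which cover counting error alone). The segment makes up 0.264% of that sequence. In WT the shares were 0.735% and 0.851%. The log2 difference in relative density between Igf2bp2KO and WT was 3.98, higher in both Igf2bp2KO libraries than in both WT libraries. The two-sided exact permutation test gave p = 0.333, the smallest that 2 against 2 libraries allow, so it could not show a difference. The size and sign of the difference moved with the peak threshold. With summits of at least 6 times the background, which meant 9 fragments or more in all 4 libraries, the relative density was 40.1 and 53.7 in Igf2bp2KO and 23.5 and 36.9 in WT, a log2 difference of 0.66. With a fold enrichment of 4 or more the log2 difference was -2.13, but that asked for 17 and 16 fragments in Igf2bp2KO, where the segment kept 3 and 4 peaks, and for 9 in WT. At a q of 0.05 or below, the Igf2bp2KO lists kept 104 and 89 peaks on chromosomes 1 to 19, with 0 in the segment. The WT lists kept 301 and 242 peaks in the segment. That threshold asked for 22 and 20 fragments in Igf2bp2KO and 9 in WT. Both knockouts were set against the same WT libraries.

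In the 13 windows of 500 kb, both Prmt6KO densities were below both WT densities in 6. Genome-wide this held for 17.6% of 4798 windows, and the segment was chosen on this contrast. The 6 windows were neighbours, from 145000001 to 148000000. The densest of them, 147000001 to 147500000, stood at 259 and 359 in Igf2bp2KO, 2.44 and 4.37 in Prmt6KO, and 9.51 and 11.5 in WT. This window had the highest relative density of all windows of this length in both Prmt6KO libraries and in both WT libraries. The window with the lowest WT values, from 148000001, stood at 0.834 and 0.372 in Prmt6KO and 0.0920 and 0.0398 in WT. Elsewhere, 6 windows were as dense in WT as the least dense of the 3 windows that lie wholly inside the zinc finger stretch. Since they were picked for WT density, their order between the genotypes is no finding. Their Prmt6KO relative densities ran from 2.00 to 2.84 with a median of 2.57, against 1.96 to 3.40 in the 3 windows of the stretch.

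**Figure D3:**
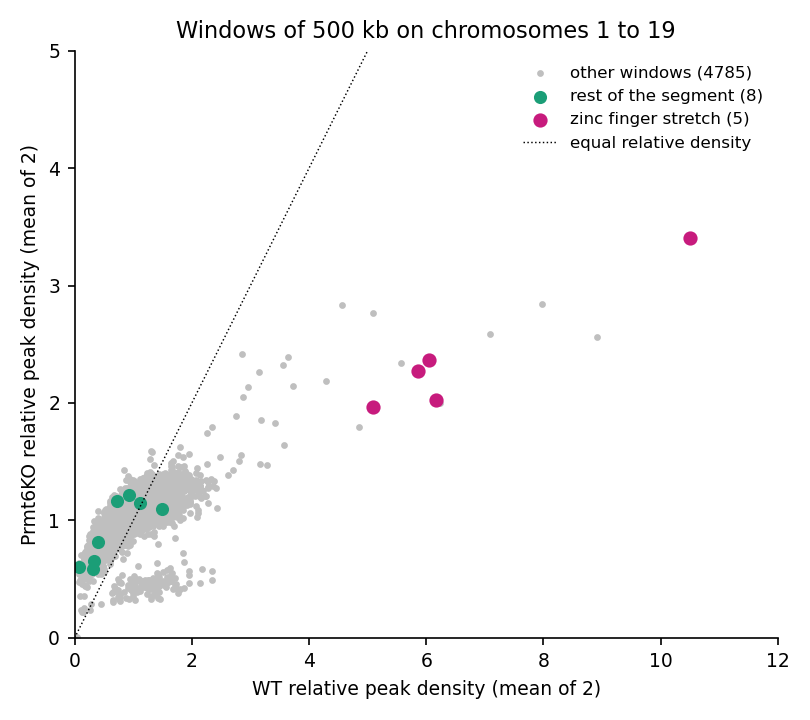
Mean relative peak density of 2 libraries in Prmt6KO (vertical axis) against WT (horizontal axis) for windows of 500 kb on chromosomes 1 to 19, with windows centred in the zinc finger stretch in pink, the rest of the segment in green and all others in grey. The pink windows lie to the right of the line of equal density, at a Prmt6KO density well above 1, beside the few other windows that are as dense in WT.

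At finer scale, windows of 100 kb, both Prmt6KO densities were below both WT densities in 25 of 63 windows, against 17% of such windows genome-wide. In windows of 1 Mb it was 3 of 6, against 17.7%. The 3 densest WT windows of 100 kb are given in full. The window from 147300001, with Zfp978 and Zfp988, stood at 594 and 460 in Igf2bp2KO, 2.75 and 4.59 in Prmt6KO, and 11.5 and 14.9 in WT. The window from 147200001, inside Zfp978, stood at 2.84 and 5.34 in Prmt6KO and 9.51 and 14.5 in WT. The third, from 145800001, stood at 2.59 and 5.15 in Prmt6KO and 11.0 and 12.5 in WT and holds no protein-coding gene, only the zinc finger pseudogene Znf41-ps and the predicted loci Gm13238 and Gm13246. The density was not even along the stretch. No WT or Prmt6KO list held a peak from 145899845 to 146050796 (151 kb) or from 146293268 to 146425386 (132 kb). Shorter empty stretches measured 51.0, 50.4 and 50.2 kb. The windows from 145900001 and 146300001 held 0 peaks in all 6 lists and no annotated gene. Whether reads could be placed in such stretches was not tested, so they do not show that the mark is absent.

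Peaks of the stretch were also stronger than peaks elsewhere in the WT and Prmt6KO lists. The share with a fold enrichment of 4 or more was 19.1% and 19.8% in Prmt6KO and 29.7% and 25.8% in WT. In the rest of chromosomes 1 to 19 it was 1.84% and 1.26% in Prmt6KO and 2.86% and 1.83% in WT. In Igf2bp2KO the order was the opposite, with 3.13% and 2.41% in the stretch against 26.7% and 17.5% elsewhere. The genotypes are not on 1 scale here. A fold enrichment of 4 asked for 17 and 16 fragments in Igf2bp2KO, 6 and 8 in Prmt6KO, and 9 in both WT lists. The highest summits of the stretch were alike in raw fragments, at 17 in both Igf2bp2KO libraries, 17 and 18 in Prmt6KO, and 19 in both WT libraries. The highest fold enrichments were 4.07 and 4.37 in Igf2bp2KO, 10.4 and 8.60 in Prmt6KO, and 8.13 and 8.20 in WT. Elsewhere summits reached 388 to 398 fragments in every library. The stretch was thus a place of many peaks of moderate height, not of the highest ones.

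**Figure D4:**
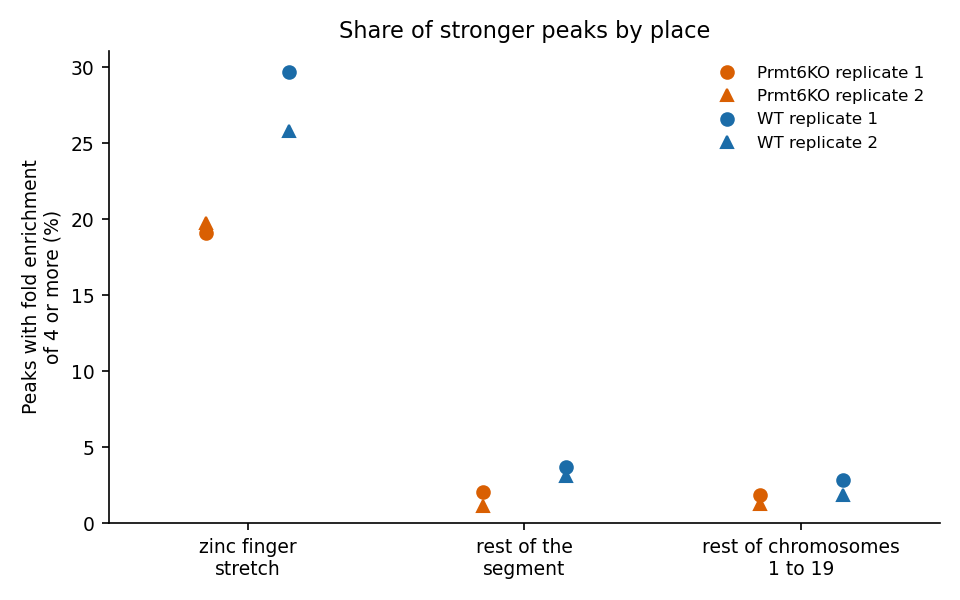
Percentage of listed peaks with a fold enrichment of 4 or more (vertical axis) in the zinc finger stretch, the rest of the segment and the rest of chromosomes 1 to 19, for the Prmt6KO (orange) and WT (blue) libraries. Each point is a library, and all 4 stand between 19.1% and 29.7% in the stretch and below 4% in the other places.

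Replicates of Prmt6KO and of WT shared a larger part of their peaks here than elsewhere, and those of Igf2bp2KO did not. In the stretch, 51.0% of the Igf2bp2KO replicate 1 peaks overlapped a replicate 2 peak by at least 1 base, as did 64.8% in Prmt6KO and 60.9% in WT. In the rest of chromosomes 1 to 19 the shares were 57.6%, 11.2% and 5.59%. The second list covered 2.61% of the stretch in Igf2bp2KO, 27.8% in Prmt6KO and 20.5% in WT. Elsewhere it covered 0.0186%, 4.44% and 1.35%. In Prmt6KO and WT the larger sharing in the stretch thus went together with larger coverage. Whether sharing was larger beyond coverage was not tested. Of the Igf2bp2KO replicate 1 peaks in the stretch, 99.0% and 94.8% overlapped a peak of the WT lists. For Igf2bp2KO replicate 2 the shares were 88.6% and 89.8%. In the rest of chromosomes 1 to 19 such shares were also high, at 92.5% and 75.1% for replicate 1 and 83.3% and 69.2% for replicate 2. The WT lists covered 21.8% and 20.5% of the stretch but 1.74% and 1.35% elsewhere. Of the WT lists' own peaks in the stretch, 7.57% and 8.13% overlapped an Igf2bp2KO replicate 1 peak.

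Merging all peaks gave 3398 regions in the segment, 1504 of them in the zinc finger stretch. A peak of all 6 libraries was held by 36 regions, and all 36 lay in the stretch. All 96 Igf2bp2KO replicate 1 peaks of the segment start in the stretch, so that list fixed the place of these regions. Merging can chain several peaks into a region, up to 12109 bases among the 36. Peaks of its libraries therefore need not all overlap one another. No share for the rest of the genome is given beside these counts. Of the regions, 316 held peaks of both libraries in 2 or more genotypes, 307 of them in the stretch. Among these, 193 lay on a protein-coding gene or within 1 kb of one, led by Zfp978 with 63, Zfp993 with 48, Rex2 with 15, Zfp984 with 12 and Zfp991 with 11. These counts are not adjusted for gene length. Zfp993 spans 478623 bases and Zfp978 267146, and both overlap other genes, so a region can count for several genes. The regions over Zfp600 show what an all-library region looks like. The region from 146162745 to 146170742 had its highest summit at 16 and 17 fragments in Igf2bp2KO, 17 and 16 in Prmt6KO, and 17 and 19 in WT. The region from 147332410 to 147339248, at Zfp978 and Zfp988, had 16 and 13 fragments in Igf2bp2KO, 16 and 16 in Prmt6KO, and 17 and 15 in WT. At these places the summits of the 3 genotypes overlapped in raw fragments, which are not adjusted for background or depth. In fold enrichment the first region stood at 3.88 and 4.37 in Igf2bp2KO, 10.4 and 7.70 in Prmt6KO, and 7.31 and 8.20 in WT. The second stood at 3.88 and 3.51 in Igf2bp2KO, 9.79 and 7.70 in Prmt6KO, and 7.31 and 6.56 in WT. Igf2bp2KO was thus below the other genotypes in fold enrichment at both, but fold enrichment is not on 1 scale between genotypes. The listed folds follow from pileup and background with 1 added to each. In Igf2bp2KO a fragment counted 0.277 and 0.302 in the pileup, which lowers the fold at a given ratio of fragments to background. The background was 1.45 and 1.34 fragments in Igf2bp2KO, 0.736 and 1.21 in Prmt6KO, and 1.46 and 1.44 in WT.

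Gene by gene, peaks were counted over each gene and 1 kb on each side. Over the 17 zinc finger genes the median density per 10 kb was 0.224 and 0.657 peaks in Igf2bp2KO, 6.73 and 6.83 in Prmt6KO, and 5.91 and 4.95 in WT. Over all 21631 protein-coding genes it was 0 in Igf2bp2KO, 3.13 and 1.14 in Prmt6KO, and 0.279 and 0 in WT. In 10 of the 17 genes both Prmt6KO counts were above both WT counts and in 0 were both below, against 57.1% above among all protein-coding genes. The PRAME family genes had a median of 2.98 and 1.13 in Prmt6KO and 0 in WT.

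Zfp600 (146156827 to 146198756) held 13 and 13 peaks in Igf2bp2KO, 26 and 30 in Prmt6KO, and 32 and 25 in WT. Rex2, a zinc finger gene known from mouse embryonic stem cells (146973610 to 147060799), held 2 and 11 in Igf2bp2KO, 60 and 43 in Prmt6KO, and 46 and 35 in WT. Prmt6KO and WT overlapped at both genes. Zfp979 (147611936 to 147642508) held 6 and 4 in Igf2bp2KO, 23 and 20 in Prmt6KO, and 21 and 24 in WT. Zfp984 (147753974 to 147812229) held 0 and 3 in Igf2bp2KO, 40 and 46 in Prmt6KO, and 40 and 43 in WT, again with overlap between Prmt6KO and WT. Zfp534 (147674225 to 147702631) differed from these 4 genes, with 0 peaks in both Igf2bp2KO libraries, 22 and 17 in Prmt6KO, and 10 and 12 in WT, so that Prmt6KO lay above WT. That order held in 10 of the 17 zinc finger genes, Zfp534 among them. Fv1 (147868979 to 147870358), a single short open reading frame, held 0 peaks in all 6 libraries.

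**Figure D5:**
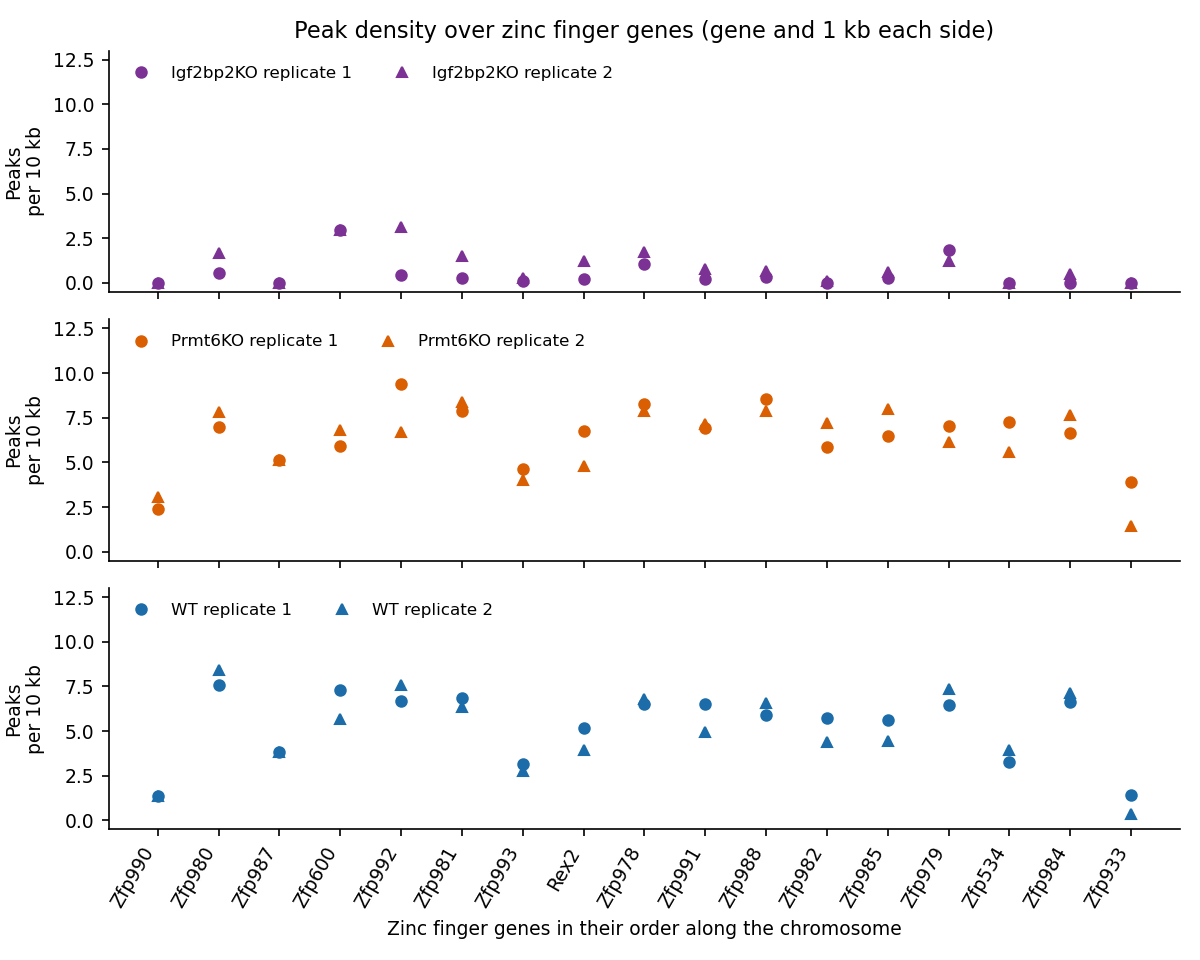
Peaks per 10 kb over the 17 zinc finger genes of the stretch, in their order along the chromosome, each gene with 1 kb on each side. Circles are replicate 1 and triangles replicate 2. The Prmt6KO and WT libraries are high over most genes, Zfp990 and Zfp933 at the 2 ends are lowest in WT, and Igf2bp2KO peaks stand at 0 to 3.12 per 10 kb.

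A gene was called in a genotype when both libraries had a peak within 1 kb of 1 of its ends. The segment has 98 protein-coding genes in RefSeq. In WT 19 were called, against 3.56% of protein-coding genes genome-wide, and 16 of them were zinc finger genes, all of the 17 but Zfp933. The lower fold enrichment of the WT pair was highest at Zfp988 (6.56), Zfp978 (6.50), Zfp991 (5.69), Zfp992 (4.88) and Zfp979 (4.51). Zfp534, Zfp984, Zfp981, Zfp987, Zfp993, Zfp985 and the predicted gene Gm42346 followed at 3.28 to 3.69. The other called genes outside the zinc finger group were Gm13212 and Masp2, which encodes a serine protease of the complement lectin pathway. Zfp978 (267 kb) and Zfp993 are annotated over other genes of the cluster, so a peak there can count for several genes.

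In Prmt6KO 38 genes were called, against 29% genome-wide, and 14 of them were zinc finger genes. No gene called in WT lacked a gene-end peak in both Prmt6KO libraries at once (0 of 19). Genome-wide this held for 92 of 770 genes called in WT, which is 0.425% of all protein-coding genes. Called in Prmt6KO with no gene-end peak in either WT library were 17 of the 98 genes, near the 18.6% genome-wide. Of these 17, 0 were zinc finger genes, but 16 of the 17 zinc finger genes were called in WT and so could not count. WT peaks farther inside a gene did not count here, and Mtor held 3 and 2 of them. The highest lower folds among the 17 genes were 3.17 at AAdacl4fm3, of the arylacetamide deacetylase-like family, and at Tardbp, which encodes the RNA-binding protein TDP-43. Next came Pramel26 at 2.72, and Gm13040, Aadacl4, the retinal reductase gene Dhrs3, the kinase gene Mtor and the ubiquitin ligase gene Ube4b at 2.30. A further 8 genes tied at 2.26. The genes lie outside the zinc finger stretch, and the lowest fold enrichments listed in Prmt6KO were 1.73 and 1.81.

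In Igf2bp2KO 2 genes were called, Zfp978 and Zfp988, against 0.208% genome-wide. The lower fold of the pair was 3.09 at both. Of the 19 genes called in WT, 14 (73.7%) had no peak at their ends in either Igf2bp2KO library, 11 of them zinc finger genes. Genome-wide this held for 716 of the 770 genes called in WT (93.0%), which is 3.31% of all protein-coding genes. These lists were short throughout, and any Igf2bp2KO peak overlapped 93 and 129 of the 21631 protein-coding genes.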

How the data were processed

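Build mm10 and the tools MACS2 2.1.0, HISAT2, bedtools, Trim Galore and bcl2fastq 2.17 are named in the submitters' processing notes, without settings. Each deposited list held 1 library's peaks, with a score, a fold enrichment (a ratio) and the -log10 of p and q, as the authors' caller gave them. Per the file headers, a companion table gave the summit pileup, a coverage signal. The background was recovered from the deposited pileup and fold enrichment, and pileups in the Igf2bp2KO lists, multiples of 0.277 and 0.302, were divided by these steps to give fragments.

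Peaks were assigned by start. Genes came from RefSeq GRCm38.p6, whose table gives no strand or description, so gene groups rest on symbols. The chromosome end was taken as the last listed peak or gene. Python 3.11.15, numpy 2.4.6, scipy 1.17.1, pandas 2.3.3 and edlib 1.3.9.post1 were used. The counting was tested on simulated lists. The members, the lists and the rule for named genes were chosen with earlier results of these data known. The rule names Zfp534, Zfp600, Zfp979, Zfp984, Rex2 and Fv1, up to 12 called genes in WT and 12 in Prmt6KO alone by the lower fold, all called in Igf2bp2KO, and the genes of the densest windows and of shared regions. A gene that this rule names is not reported here. The alternatives were stricter thresholds, equal list lengths, covered bases, the flanks as reference, other extents and window lengths, leaving out each library, and pairing by replicate number.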

Additional observations from a re-analysis of the deposited data

How the results depend on the processing

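Relative density on the log2 scale was highest with strict peaks. WT stood at 4.88 with a q of 0.05 or below, a fold enrichment of 4 or more, or 6 times the background, which chose the same number of WT peaks, and Prmt6KO stood at 4.06, 3.53 and 3.01 under these in turn. The difference of Prmt6KO from WT was then -0.82, -1.35 and -1.87. With lists of equal length, Prmt6KO stood at 1.39 and the difference was -0.29. By covered bases Prmt6KO stood at 1.11 and WT at 2.41, and against the flanks Prmt6KO at 1.22 and WT at 3.11, a difference of -1.90. Over the first 4.5 Mb Prmt6KO stood at 0.86 and WT at 2.07. Over the last 2 Mb, past the zinc finger genes, the values reversed, with Prmt6KO at -0.65, WT at -1.87, a difference of 1.22 and 0 windows of 500 kb in which Prmt6KO was below WT. Windows of 100 kb gave 25 and windows of 1 Mb gave 3. The difference of Igf2bp2KO from WT reversed to -2.13 at a fold enrichment of 4 or more, where the segment held 3 and 4 Igf2bp2KO peaks, and was 0.66 at 6 times the background. The cause was not tested. Igf2bp2KO gave no value at the q threshold, against the flanks or over the last 2 Mb, where it had 0 peaks. Leaving out a library in turn gave 1.48 to 1.69 in WT, 0.37 to 0.75 in Prmt6KO, -1.22 to -0.83 for Prmt6KO minus WT, 3.73 to 4.23 for Igf2bp2KO minus WT, and 6 to 7 windows. With libraries of the same number paired (replicate block), Igf2bp2KO minus WT was 3.98 (exact sign-flip test, p = 0.5, the smallest that 2 pairs allow). Deviations of same-numbered libraries had correlations of 0.43 (Prmt6KO and WT), 0.29 (Igf2bp2KO and WT) and 0.18 (Igf2bp2KO and Prmt6KO) over windows, but nothing in the labels pairs them.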
